A study of Mus musculus with 12 samples.

Results

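The genes encoded by mitochondrial DNA (mtDNA) were examined in mouse retina after excitotoxic injury. They were taken as every gene of the expression table whose symbol begins with mt-, which gave 37 of 55487 genes: 13 protein genes, 2 rRNA genes and 22 tRNA genes. All 12 libraries were poly(A) RNA-seq of retina, 2 per group, made from C57BL/6J wild type (WT) retinas, from retinas given an adeno-associated virus with pU6-shPax6-GFP (sh*Pax6*), and from *Jnk3*-/- retinas (JNK3 KO). Each retina had received an intravitreal injection of 1 μL of PBS, or of 1 μL of 40 mM NMDA in PBS (40 nmol), an agonist of ionotropic glutamate receptors that kills retinal ganglion cells (RGCs). The 6 groups were therefore WT PBS, WT NMDA, sh*Pax6* PBS, sh*Pax6* NMDA, JNK3 KO PBS and JNK3 KO NMDA. No library of the control virus was among the 12, so infection and knockdown cannot be told apart in the sh*Pax6* groups. Each library pooled more than 3 retinas. The labels do not say that replicates came from different animals, and p-values then measure only the spread between libraries. The virus was delivered into mice 2 months old. The age of the WT and JNK3 KO mice without virus and the time from injection to harvest of these libraries are not given in the sources used here.

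Mammalian mtDNA is a small circular genome that is copied from both strands into long polycistronic RNAs. The tRNAs that stand between the other genes are cut out, which releases mRNAs and rRNAs, and most mRNAs then receive a short poly(A) tail in the matrix. The proteins are core subunits of complexes I, III and IV of the respiratory chain and of the ATP synthase, complex V, and the remaining subunits come from nuclear genes. Retina is among the tissues with the highest oxygen demand, and photoreceptors hold dense mitochondria in their inner segments.

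Of the 37 genes, 15 had a value above 0 in the libraries: all 13 protein genes and both rRNA genes. The 22 tRNA genes were listed at 0 FPKM (fragments counted per kilobase of transcript and scaled to the library's mapped fragments) in all 12 libraries and could not be tested. The gene and the transcript tables held the same values for all 37. FPKM is a level per length, but levels of different genes can be set side by side only with caution. Reads of some genes can also match nuclear copies, described below. Whether length shaped the values of the shortest genes was not tested. No read numbers are given, and the depth behind each value is unknown.

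On the genome build of the files, GRCm38, the genes lie close together and some overlap. *mt-Atp8* (chrM:7766-7969, plus strand), whose product is a small ATP synthase subunit, shares its last 43 bases with *mt-Atp6* (chrM:7927-8607, plus strand), the proton channel subunit that is translated from the same mRNA. *mt-Nd4l* (chrM:9877-10173, plus strand) shares its last 7 bases with *mt-Nd4* (chrM:10167-11544, plus strand), and both encode membrane subunits of complex I. These were the genes whose levels departed most from those of their partners, so their sequences are given, from the GENCODE M21 transcripts (GRCm38), with the shared bases in capitals.

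mt-Atp8: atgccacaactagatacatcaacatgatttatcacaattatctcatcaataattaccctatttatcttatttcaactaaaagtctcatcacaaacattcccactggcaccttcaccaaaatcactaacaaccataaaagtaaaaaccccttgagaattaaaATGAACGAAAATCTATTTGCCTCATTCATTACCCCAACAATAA

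mt-Nd4l: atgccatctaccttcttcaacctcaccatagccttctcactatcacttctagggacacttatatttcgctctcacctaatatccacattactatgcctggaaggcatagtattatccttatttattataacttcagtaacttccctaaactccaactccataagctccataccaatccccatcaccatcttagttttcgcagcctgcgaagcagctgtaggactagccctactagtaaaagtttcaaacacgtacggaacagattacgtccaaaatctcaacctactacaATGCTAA

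Part of mtDNA also has a copy in the nucleus. A search of the transcripts of the GENCODE M21 annotation (GRCm38) found 7 annotated unprocessed pseudogenes on the minus strand of chromosome 1, within 4663 bases (chr1:24611535-24616197), each matching 1 mtDNA gene in the same order, with spacing that differed by at most 1 base. *Gm10925* matched *mt-Atp6* over 678 bases, *Gm28661* matched *mt-Co2* over 681 bases, *Gm28437* matched *mt-Co3* over 783 bases and *Gm10222* matched *mt-Nd4l* over 294 bases, each with 100% identity. *Gm28439* equals the first 876 bases of *mt-Nd4*. No copy was annotated opposite the part of *mt-Atp8* outside its overlap. Only 2 of the 7 copies differ from mtDNA in their aligned bases, at 1 base each, counted from the first base of the mtDNA gene. *Gm28438* differs from *mt-Nd3* by T3C over 345 bases. *Gm29216* matches the last 483 bases of *mt-Co1* apart from A1066T, while its first 9 bases lie outside the match. The stretches around both bases are shown from 5′ to 3′ with the differing base in capitals.

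mt-Nd3: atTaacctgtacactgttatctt

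Gm28438: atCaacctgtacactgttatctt

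mt-Co1: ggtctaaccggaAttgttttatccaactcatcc

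Gm29216: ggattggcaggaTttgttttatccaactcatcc

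Reads from these stretches match both loci, and the estimation behind the deposited values could divide them between the 2. Of the summed FPKM of gene and copy, the copy held 88.8% to 96.4% over the 12 libraries for *mt-Atp6*, 84.0% to 94.6% for *mt-Co2*, 77.5% to 92.7% for *mt-Co3* and 65.6% to 88.1% for *mt-Nd3*. It held 21.5% to 82.2% for *mt-Co1*, 6.04% to 64.1% for *mt-Nd4l* and 0.0112% to 0.816% for *mt-Nd4*. Some replicates lay closer together with the copy added: *mt-Nd3* in sh*Pax6* NMDA differed 2.93-fold between its 2 libraries alone and 1.12-fold after the copy was added, *mt-Co2* 2.47-fold and 1.01-fold, and *mt-Co3* 2.35-fold and 1.05-fold. The levels of these 7 genes are therefore uncertain and are given alone and with the copy. For the other 8 detected genes, no matching copy exceeded 0.68 FPKM in any library, which was the highest value of *Gm13339*, a partial copy of *mt-Nd2* with 96.7% identity. The copies were added after the values had been seen.

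**Figure D1:**
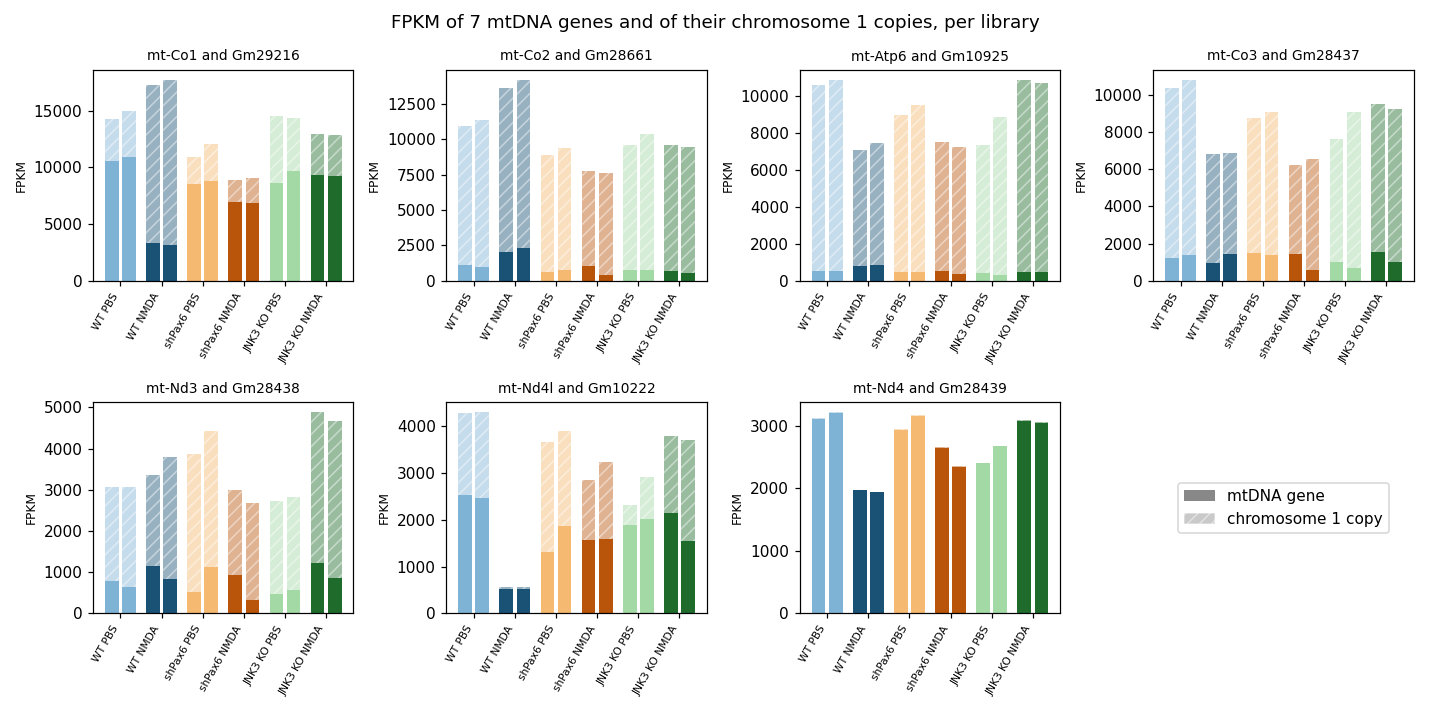
FPKM (y axis) of 7 mtDNA genes, solid, with the chromosome 1 copy stacked on top, hatched, for 2 libraries per group (x axis). Most of the summed level of mt-Co2, mt-Atp6, mt-Co3 and mt-Nd3 sat in the copy, and for mt-Co1 the copy held 80.9% and 82.2% in WT NMDA; since the mt-Co1 copy covers only the last 483 bases, its stacked bar is the level of that stretch.

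In WT PBS retina mtDNA genes held a large part of the measured RNA. The 13 protein genes held 8.32% and 8.23% of the summed FPKM of all genes in the 2 libraries, and 15.1% and 15.2% with the copies. *mt-Co1*, the catalytic subunit of complex IV, was highest of the genes without their copies at 10592 and 10917 FPKM, followed by *mt-Atp8* at 8119.9 and 7794 and *mt-Cytb*, the core of complex III, at 7435 and 7685. The values of *mt-Atp8* and *mt-Cytb* lay close together, but did not overlap. *mt-Nd4l*, *mt-Nd2* and *mt-Nd5* followed *mt-Nd1* and *mt-Nd4* with mean levels of 2497, 2275 and 1875 FPKM. *mt-Rnr2* and *mt-Nd3* overlapped in level, and all other neighbours in this order did not. With the copies the order was another: *mt-Co1* stood at 14316 and 15015 FPKM, *mt-Co2* at 10915 and 11388, *mt-Atp6* at 10624 and 10894 and *mt-Co3* at 10392 and 10828, all above *mt-Atp8* and *mt-Cytb*. At the low end stood *mt-Nd6*, the complex I subunit encoded on the other strand, at 27.9 and 25.2 FPKM. Whether the libraries kept strand is not given in the sources used here, so *mt-Nd6* reads cannot be told from RNA antisense to it. Not every mtDNA mRNA receives a poly(A) tail, and the tail of *mt-Nd6* was not examined. Its level in a poly(A) library may therefore not give its abundance. The 2 rRNAs lay between 391 and 740 FPKM; their levels in a poly(A) library do not give the abundance of rRNA in the tissue.

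**Figure D2:**
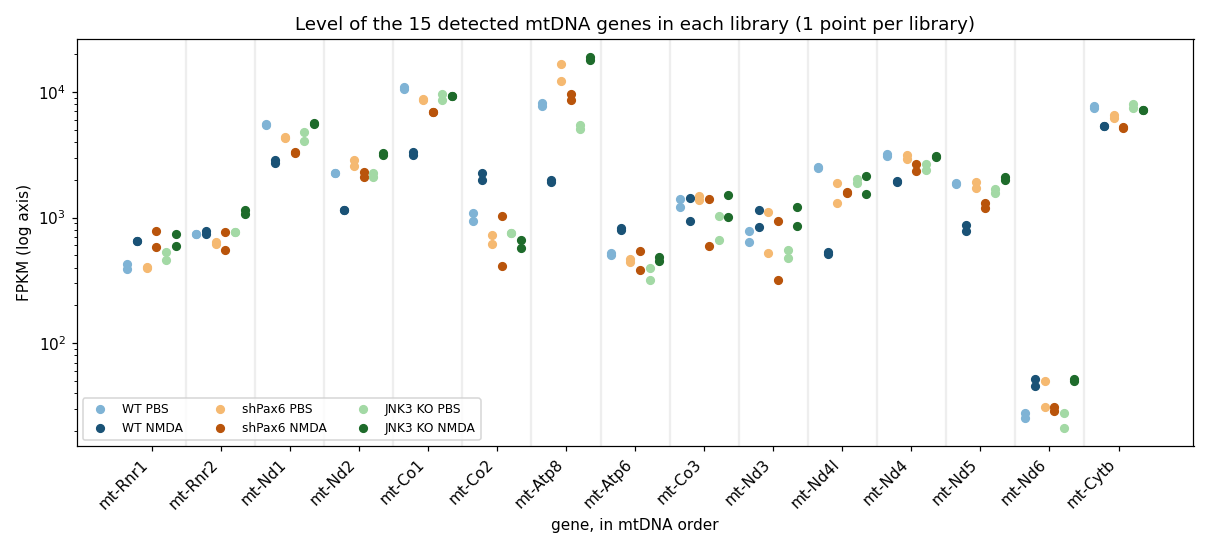
FPKM on a log axis (y) of the 15 detected mtDNA genes in mtDNA order (x), 1 point per library, coloured by group. In WT NMDA mt-Co1, mt-Atp8 and mt-Nd4l sat far below the other 5 groups, whereas mt-Atp8 was highest in JNK3 KO NMDA at 18104 and 18848 FPKM.

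A few facts of the whole series bear on these values. The FPKM of all genes summed to between 541210 and 576922 in 10 libraries but to 805627 and 820180 in the 2 WT NMDA libraries. The total is no measure of depth. With PBS the targeted genes were lowered: the 2 WT PBS libraries had 173 and 177 FPKM of *Pax6* and the 2 sh*Pax6* PBS libraries 94.6 and 92.8. *Mapk10*, which encodes JNK3, read 42.8 and 50.7 FPKM in WT PBS against 9.47 and 8.75 in JNK3 KO PBS, so it was not at 0. With NMDA neither gene was lower than in WT. *Pax6* read 55.4 and 53.8 FPKM in WT NMDA and 67.5 and 58.7 in sh*Pax6* NMDA. *Mapk10* read 8.98 and 6.00 FPKM in WT NMDA and 6.65 and 13.8 in JNK3 KO NMDA, and these groups overlapped. The rod markers, 8 genes summed, ranged from 21788 to 38036 FPKM over the 12 libraries. Libraries were compared by limma on log2(FPKM + 0.1) over the 16471 genes whose mean exceeded 1 FPKM in at least 1 group. All fold changes are differences on that scale with their SE, and a gene was called at a Benjamini-Hochberg adjusted p below 0.05.

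The first comparison asked how mtDNA transcripts responded to NMDA in WT retina. Of the 13 protein genes, 8 fell and 3 rose, and *mt-Co3* and *mt-Nd3* were not called. Among all genes tested 33.8% fell and 26% rose, so calls were frequent in this comparison in general. The median log2 fold change of the 13 genes was -0.70, against -0.09 over all genes tested. Their share of the summed FPKM went from 8.32% and 8.23% to 2.85% and 2.81%, and with the copies from 15.1% and 15.2% to 7.81% and 7.88%. In FPKM the sum of the 13 fell to 0.509 of its PBS mean, or to 0.769 with the copies. The sum with copies includes *Gm29216*, which matches only the last 483 bases of *mt-Co1* and rose from a mean of 3911 to 14269 FPKM. The shares with the copies carry the same limit. The protein genes without a chromosome 1 copy fell to 0.482 of their PBS mean.

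**Figure D3:**
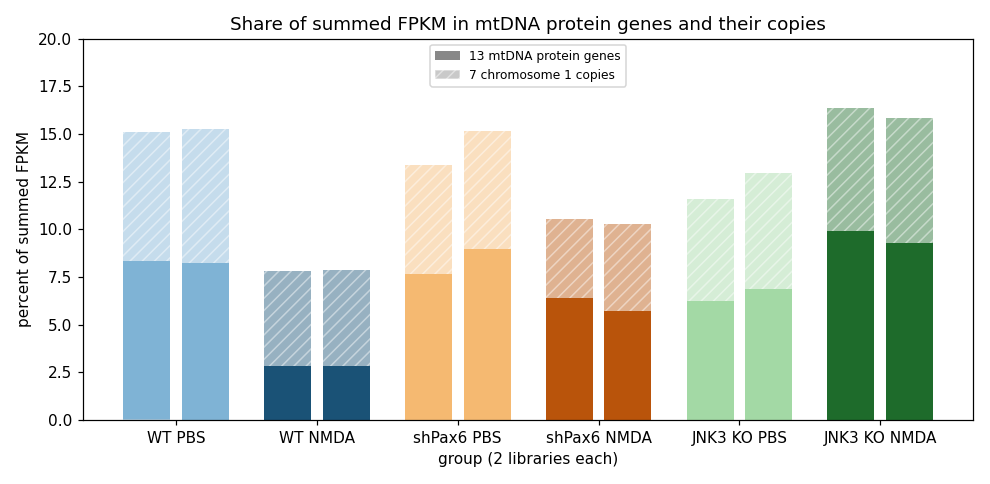
Percent of the summed FPKM of all genes (y axis) held by the 13 mtDNA protein genes, solid, and their 7 chromosome 1 copies, hatched, in each library of the 6 groups (x axis). The solid share was 2.85% and 2.81% in WT NMDA, the lowest of all, and 9.91% and 9.30% in JNK3 KO NMDA, the highest.

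Complex I, the NADH dehydrogenase that feeds electrons into the chain, has 7 mtDNA subunits, and 5 of them fell in WT. *mt-Nd1* (chrM:2751-3707, plus strand), which lines the quinone site, was at 5454 and 5585 FPKM with PBS and 2863 and 2737 with NMDA (log2 fold change -0.98 ± 0.07, adjusted p = 2.4e-06). *mt-Nd2* (chrM:3914-4951, plus strand), a proton-pumping subunit, stood at 2270.2 and 2280.4 FPKM before and 1154 and 1147 after NMDA (log2 fold change -0.98 ± 0.06, adjusted p = 1.15e-06). In both, all NMDA libraries lay at about 1 log2 unit below the PBS libraries. *mt-Nd4*, another pumping subunit, went from 3113 and 3209.8 to 1968 and 1935 FPKM (log2 fold change -0.70 ± 0.07, adjusted p = 1.88e-05). *mt-Nd5* (chrM:11742-13565, plus strand), the largest of the pumping subunits, had 1851 and 1898 FPKM with PBS and 777 and 871 with NMDA (log2 fold change -1.19 ± 0.08, adjusted p = 1.61e-06). *mt-Nd4l* showed the steepest loss of the 15 genes, with 2535 and 2459 FPKM in PBS retina and 528 and 515 in NMDA retina (log2 fold change -2.26 ± 0.17, adjusted p = 3.82e-06). For all 5 genes the groups did not overlap.

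The remaining complex I genes went otherwise. *mt-Nd6* (chrM:13552-14070, minus strand) was at 27.9 and 25.2 FPKM with PBS and 46.1 and 52.1 with NMDA, a rise (log2 fold change 0.88 ± 0.20, adjusted p = 0.00458). *mt-Nd3* (chrM:9459-9806, plus strand), a subunit next to the quinone site, read 787 and 634 FPKM before and 1153 and 836 after (log2 fold change 0.47 ± 0.49, adjusted p = 0.433). The rise of *mt-Nd6* was lost when each library was scaled to the same FPKM sum (log2 fold change 0.31, adjusted p = 0.203). *mt-Nd3* was not called, and its replicates differed by up to 1.38-fold in these groups.

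In complexes III and IV *mt-Cytb* and *mt-Co1* fell and *mt-Co2* rose. *mt-Cytb* (chrM:14145-15288, plus strand), the only complex III gene in mtDNA, had 7435 and 7685 FPKM with PBS and 5407 and 5315 with NMDA (log2 fold change -0.50 ± 0.04, adjusted p = 6e-06), the smallest of the 8 losses. *mt-Co1* (chrM:5328-6872, plus strand) read 10592 and 10917 FPKM in PBS and 3302 and 3163 in NMDA libraries (log2 fold change -1.73 ± 0.05, adjusted p = 3.24e-08). *mt-Co2* (chrM:7013-7696, plus strand), the subunit that takes electrons from cytochrome c, stood at 1088 and 939 and 2007 and 2279 FPKM in turn (log2 fold change 1.08 ± 0.32, adjusted p = 0.0171). The *mt-Co2* call is fragile: it was lost without any one of the 4 WT libraries (adjusted p = 0.0539 to 0.0931). *mt-Co3* (chrM:8607-9390, plus strand), which completes the core of complex IV, overlapped between groups at 1208 and 1404 FPKM and 948 and 1426 (log2 fold change -0.16 ± 0.39, adjusted p = 0.748).

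The 2 complex V genes, which lie on one mRNA, moved in opposite directions. *mt-Atp8* was at 8119.9 and 7794 FPKM with PBS and 2005 and 1913 with NMDA (log2 fold change -2.02 ± 0.12, adjusted p = 9.27e-07). *mt-Atp6* alone was at 522 and 504 and 795 and 832 FPKM (log2 fold change 0.66 ± 0.15, adjusted p = 0.00353). With its copy the *mt-Atp6* level was 10624 and 10894 FPKM with PBS and 7093 and 7446 with NMDA, a fall of -0.57 ± 0.07 (adjusted p = 0.000125) in log2. The direction of *mt-Atp6* therefore turned when the copy was added.

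Adding the copies changed other genes too. *mt-Nd4l* with *Gm10222* went from 4281 and 4296 to 562 and 558 FPKM, or in log2 -2.94 ± 0.10 (adjusted p = 4.69e-08). *mt-Co3* with *Gm28437* went from 10392 and 10828 to 6840.2 and 6861 FPKM and was now called lower, at -0.63 ± 0.07 (adjusted p = 4.46e-05). *mt-Co2* with *Gm28661* stood at 10915 and 11388 and 13626 and 14213 FPKM, and its log2 fold change shrank to 0.32 ± 0.05 (adjusted p = 0.000254). *mt-Nd3* with *Gm28438* had 3055 and 3072 FPKM before and 3354 and 3797 after NMDA, at 0.22 ± 0.08 (adjusted p = 0.0361) in log2. With the copies added, 9 protein genes fell and 4 rose, of 16464 genes tested, of which 33.8% fell and 26% rose. Those that rose were *mt-Co1*, whose sum is the level of its last 483 bases, *mt-Co2*, *mt-Nd3* and *mt-Nd6*. When libraries were also scaled to an equal sum over all other genes, 12 fell and none rose, where 53.8% of all genes fell and 11.6% rose. Rescaling each library to the same FPKM sum over all genes moved the median of all genes in WT from -0.09 to -0.65 in log2. Under it the 13 genes without copies split into 8 lower and 0 higher, where 50.2% of all genes were lower and 13.7% higher.

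The rRNA genes did not follow the mRNAs. *mt-Rnr1* (chrM:70-1024, plus strand), the small ribosomal RNA, had 391 and 425 FPKM with PBS and 650 and 651 with NMDA (log2 fold change 0.67 ± 0.14, adjusted p = 0.00267). *mt-Rnr2* (chrM:1094-2675, plus strand), the large one, stood at 735 and 740.4 and 735 and 789 FPKM (log2 fold change 0.05 ± 0.12, adjusted p = 0.767). The rise of *mt-Rnr1* turned to -0.022 (adjusted p = 0.911) when libraries were scaled to the same sum over genes other than mtDNA genes and copies, and *mt-Rnr2* to -0.65 (adjusted p = 0.000964).

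**Figure D4:**
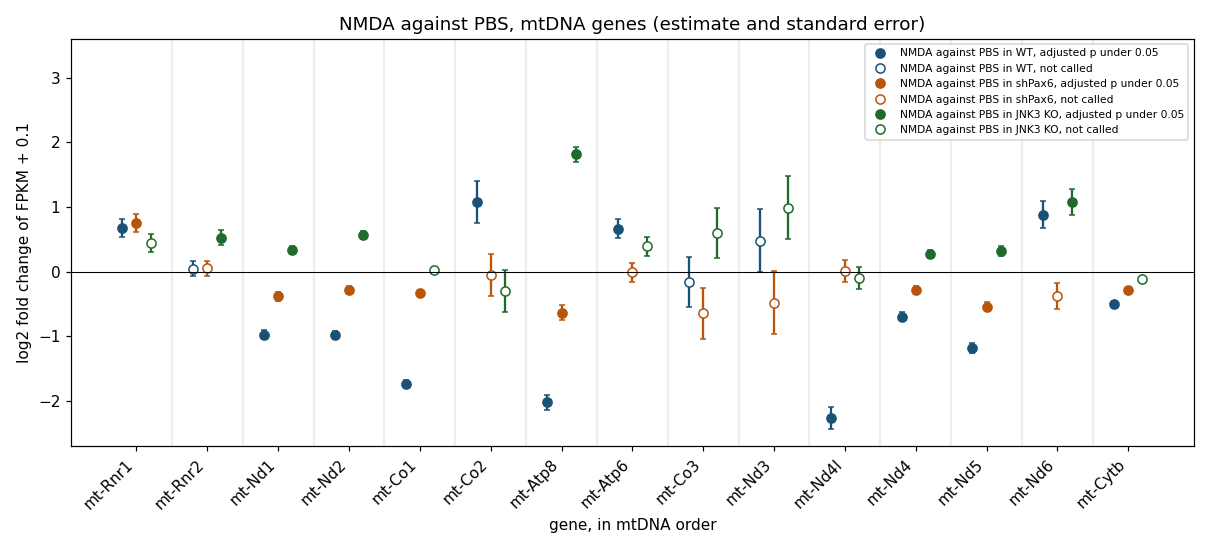
Log2 fold change of FPKM + 0.1 with its standard error (y axis), NMDA against PBS, of the 15 detected mtDNA genes in mtDNA order (x axis) in WT, shPax6 and JNK3 KO; filled points had an adjusted p under 0.05. mt-Atp8 read -2.02 in WT, -0.64 in shPax6 and 1.81 in JNK3 KO, the widest spread among genes without a chromosome 1 copy.

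In sh*Pax6* retina, the comparison of NMDA with PBS showed smaller losses. Of the 13 protein genes, 7 fell and none rose, where 11% of all genes fell and 19.1% rose. The median log2 fold change was -0.33, against 0.10 over all genes. The share of summed FPKM went from 7.65% and 8.995% to 6.39% and 5.72%. Their FPKM sum fell to 0.754 of its PBS mean, or 0.755 with the copies, and that of the protein genes without a copy to 0.714. The fit over these 4 libraries alone called 0 of the 13, and quantile normalization called 1.

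Complex I supplied 4 of the 7 losses. *mt-Nd1* was at 4266 and 4342 FPKM with PBS and 3334 and 3262 with NMDA (log2 fold change -0.38 ± 0.07, adjusted p = 0.00273). *mt-Nd2* stood at 2558 and 2848 and 2309.8 and 2117 FPKM (log2 fold change -0.29 ± 0.06, adjusted p = 0.00646). *mt-Nd5* had 1720.1 and 1922 FPKM before and 1311 and 1192 after (log2 fold change -0.54 ± 0.08, adjusted p = 0.000833). *mt-Nd4*, at 2929.6 and 3156 and 2647 and 2348 FPKM, was called lower (log2 fold change -0.29 ± 0.07, adjusted p = 0.0112), but not without sh*Pax6* PBS replicate 2 (adjusted p = 0.0755) or sh*Pax6* NMDA replicate 2 (adjusted p = 0.0823). *mt-Nd2* was not called without sh*Pax6* NMDA replicate 2 (adjusted p = 0.0529). In all 4 genes both NMDA libraries lay below both PBS libraries.

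Among the other complex I genes, replicates were wide apart. *mt-Nd4l* ranged over 1317 and 1874 FPKM with PBS and 1570.5 and 1592 with NMDA (log2 fold change 0.01 ± 0.17, adjusted p = 0.986). *mt-Nd3* ranged over 519 and 1114 and 932 and 318 FPKM (log2 fold change -0.48 ± 0.49, adjusted p = 0.501). *mt-Nd6* had 49.9 and 30.9 FPKM before and 31.4 and 28.9 after (log2 fold change -0.38 ± 0.20, adjusted p = 0.196). The groups overlapped in *mt-Nd4l*, *mt-Nd3* and *mt-Nd6*, except that the *mt-Nd6* overlap rested on PBS replicate 2, without which it was called lower (adjusted p = 0.0141).

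*mt-Cytb* was at 6204 and 6519 FPKM with PBS and 5241 and 5147 with NMDA (log2 fold change -0.29 ± 0.04, adjusted p = 0.000656), and *mt-Co1* at 8573 and 8776 and 6912 and 6865 (log2 fold change -0.33 ± 0.05, adjusted p = 0.00116). Both genes kept groups that did not overlap. *mt-Co2* read 619.9 and 729 FPKM before and 1021 and 414 after (log2 fold change -0.05 ± 0.32, adjusted p = 0.938), and it was called lower without NMDA replicate 1 and higher without NMDA replicate 2 (log2 fold change -0.70 and 0.60, adjusted p = 0.0143 and 0.0213). *mt-Co3* had 1489 and 1389.8 and 1407 and 598 FPKM (log2 fold change -0.65 ± 0.39, adjusted p = 0.243), and was called lower without NMDA replicate 1 (adjusted p = 0.0446). With the copy, *mt-Co2* had 8915 and 9403 FPKM with PBS and 7759 and 7645 with NMDA, and its replicates lay close together.

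In complex V, *mt-Atp8* was at 12141 and 16599 FPKM with PBS and 9563 and 8706 with NMDA (log2 fold change -0.64 ± 0.12, adjusted p = 0.00369). *mt-Atp6* alone was at 445 and 469 and 540.1 and 382 FPKM (log2 fold change -0.01 ± 0.15, adjusted p = 0.989), and with the copy at 8992 and 9522 and 7506 and 7224, or in log2 -0.33 ± 0.07 (adjusted p = 0.00855). With the copies added, 12 of the 13 genes fell and none rose, and *mt-Nd6* was the one not called; of all genes 11% then fell and 19.1% rose. *mt-Rnr1* was the one mtDNA gene that rose in sh*Pax6*, from 408 and 395 FPKM to 785 and 583 (log2 fold change 0.75 ± 0.14, adjusted p = 0.00379). *mt-Rnr2*, at 614 and 640.2 and 762 and 554 FPKM, was not called (log2 fold change 0.05 ± 0.12, adjusted p = 0.786), though it was called higher without NMDA replicate 2 (adjusted p = 0.0144).

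In JNK3 KO retina, the protein genes that were called were higher with NMDA. Of the 13 protein genes, 6 rose and none fell, where 4.33% of all genes rose and 6.1% fell. The median log2 fold change was 0.33, against -0.01 over all genes. The share of summed FPKM went from 6.23% and 6.87% to 9.91% and 9.30%. The sum rose to 1.45 times its PBS mean, or 1.29 with the copies, and that of the protein genes without a copy to 1.72. Much of this rise lay in *mt-Atp8*, whose mean went from 5257 to 18476 FPKM. Without *mt-Atp8* the other protein genes summed to 30869 and 33381 FPKM with PBS and 36691 and 34577 with NMDA. The count fell to 2 without either JNK3 KO NMDA library, and *mt-Atp8* and *mt-Nd2* were the genes that kept their call under every alternative.

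*mt-Atp8* led, from 5089 and 5424 FPKM with PBS to 18848 and 18104 with NMDA (log2 fold change 1.81 ± 0.12, adjusted p = 5.44e-05). Its NMDA libraries were the highest of all 12. *mt-Atp6* alone read 395 and 318 and 482 and 448 FPKM (log2 fold change 0.39 ± 0.15, adjusted p = 0.137), and with the copy 7377 and 8845 and 10881 and 10714, a rise of 0.42 ± 0.07 (adjusted p = 0.00811) in log2. Both stretches of this mRNA were higher in both NMDA libraries than in both PBS libraries once the copy was added.

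In complex I, *mt-Nd2* rose from 2107 and 2245 to 3282 and 3177 FPKM (log2 fold change 0.57 ± 0.06, adjusted p = 0.000687). *mt-Nd1* stood at 4076 and 4838 FPKM with PBS and 5659.8 and 5524 with NMDA (log2 fold change 0.33 ± 0.07, adjusted p = 0.0163). *mt-Nd4* had 2407 and 2673 and 3081 and 3053 FPKM (log2 fold change 0.27 ± 0.07, adjusted p = 0.0334). In each of the 3 both NMDA libraries lay above both PBS libraries. *mt-Nd5* had 1570.4 and 1702 FPKM before and 2100.2 and 1998 after (log2 fold change 0.33 ± 0.08, adjusted p = 0.0291), and *mt-Nd6* 27.8 and 21.3 and 52.4 and 50.4 (log2 fold change 1.07 ± 0.20, adjusted p = 0.0122). The calls of *mt-Nd1*, *mt-Nd4*, *mt-Nd5* and *mt-Nd6* were lost without either NMDA library, with adjusted p between 0.0813 and 0.193. *mt-Nd3* was at 477 and 556 and 1224 and 855 FPKM (log2 fold change 0.99 ± 0.49, adjusted p = 0.261), and *mt-Nd4l* at 1881 and 2010.4 and 2142 and 1540.2 (log2 fold change -0.10 ± 0.17, adjusted p = 0.802). Neither was called alone, but with the copies *mt-Nd3* reached 0.78 ± 0.08 (adjusted p = 0.000526) and *mt-Nd4l* 0.53 ± 0.10 (adjusted p = 0.00953) in log2.

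No gene of complexes III and IV passed the test in JNK3 KO. *mt-Cytb* read 7510.4 and 7954 FPKM with PBS and 7130.4 and 7120.2 with NMDA (log2 fold change -0.12 ± 0.04, adjusted p = 0.104). *mt-Co1* read 8644 and 9646 and 9351 and 9228 (log2 fold change 0.02 ± 0.05, adjusted p = 0.84), *mt-Co2* 752 and 759 and 659.5 and 571 (log2 fold change -0.30 ± 0.32, adjusted p = 0.65), and *mt-Co3* 1021 and 659 and 1526 and 1013 (log2 fold change 0.60 ± 0.39, adjusted p = 0.399). This held with and without the copies. With the copies added, 9 of the 13 genes rose and none fell, where 4.33% of all genes rose and 6.12% fell. Of the rRNAs, *mt-Rnr2* rose from 774 and 763 to 1067 and 1144 FPKM (log2 fold change 0.52 ± 0.12, adjusted p = 0.025), while *mt-Rnr1*, at 528 and 458 and 597 and 743, was not called (log2 fold change 0.44 ± 0.14, adjusted p = 0.0896). The *mt-Rnr2* call was lost without any one of the 4 JNK3 KO libraries (adjusted p = 0.107 to 0.17).

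Whether the NMDA response differed between genotypes was tested as the difference of the 2 log2 fold changes. Between WT and sh*Pax6*, 8 of the 13 protein genes responded lower in WT and 2 higher (*mt-Atp6* and *mt-Nd6*), where 31.4% and 18.3% of all genes did. The difference was -1.38 ± 0.17 (adjusted p = 0.000178) in *mt-Atp8*, -1.40 ± 0.07 (adjusted p = 1.99e-06) in *mt-Co1* and -2.27 ± 0.24 (adjusted p = 7.96e-05) in *mt-Nd4l*. The median over the 13 was -0.41, against -0.28 over all genes tested. The *mt-Atp6* call was lost without any one of 7 libraries (adjusted p = 0.0504 to 0.0778) and the *mt-Cytb* call without any one of 4 (adjusted p = 0.0529 to 0.0942). With the copies added, 7 responded lower in WT and 4 higher (*mt-Co1*, *mt-Co2*, *mt-Nd3* and *mt-Nd6*), where 31.4% and 18.3% of all genes did, and the median was -0.24, against -0.28 over all genes. *mt-Co1*, then the level of its last 483 bases, turned to 0.61 ± 0.07 (adjusted p = 8.6e-05) and *mt-Atp6* to -0.24 ± 0.10 (adjusted p = 0.0863).

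Between WT and JNK3 KO, 8 responded lower in WT and 1 (*mt-Co2*) higher, where 27.9% and 23.5% of all genes did, and the median was -0.97 against -0.03. The largest of these differences was -3.84 ± 0.17 (adjusted p = 5.39e-07) in *mt-Atp8*. The *mt-Co2* call was lost without any one of 9 libraries (adjusted p = 0.0526 to 0.0989), and with the copies added and equal sums over other genes *mt-Co2* turned to -0.40 (adjusted p = 0.00193). With the copies alone added, 10 responded lower in WT and 2 higher (*mt-Co1* and *mt-Co2*), where 27.9% and 23.5% of all genes did, and *mt-Co1* turned to 0.42 ± 0.07 (adjusted p = 0.000594). The median of the 13 was then -0.97, against -0.03.

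Between sh*Pax6* and JNK3 KO, 7 of the 13 responded lower in sh*Pax6* and none higher, where 5.62% of all genes responded lower and 12.1% higher. They were *mt-Nd1*, *mt-Nd2*, *mt-Nd4*, *mt-Nd5*, *mt-Nd6*, *mt-Co1* and *mt-Atp8*, and the median over the 13 was -0.72 against 0.10. *mt-Atp8* again differed most, by -2.45 ± 0.17 (adjusted p = 3.31e-05). With copies added and each library set to the same sum over other genes, all 13 were called as responding lower in sh*Pax6* than in JNK3 KO, where 10.5% of all genes were lower and 7.95% higher. All 13 were also called lower in WT than in JNK3 KO, where 47.2% of all genes were lower and 9.97% higher. Each pair of these differences shares libraries, so they are not independent of each other.

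The PBS groups were compared to see whether genotype or virus altered mtDNA transcripts without NMDA. In sh*Pax6* PBS against WT PBS, 2 protein genes were higher and 4 lower, where 5.36% of all genes were higher and 11.2% lower. *mt-Atp8* was higher (12141 and 16599 against 8119.9 and 7794 FPKM, log2 fold change 0.84 ± 0.12, adjusted p = 0.00177), as was *mt-Nd2* (log2 fold change 0.25 ± 0.06, adjusted p = 0.0233). Lower were *mt-Nd1* (log2 fold change -0.36 ± 0.07, adjusted p = 0.00744), *mt-Co1* (log2 fold change -0.31 ± 0.05, adjusted p = 0.00339), *mt-Cytb* (log2 fold change -0.25 ± 0.04, adjusted p = 0.0032) and *mt-Nd4l* (log2 fold change -0.67 ± 0.17, adjusted p = 0.0273). The calls of *mt-Nd1*, *mt-Nd2* and *mt-Nd4l* were lost without WT PBS replicate 2, and not only there. Over 24 alternatives the call changed in 4 for *mt-Nd1*, in 11 for *mt-Nd2* and in 13 for *mt-Nd4l*. With the copy, *mt-Nd4l* was at 3664 and 3904 FPKM in sh*Pax6* PBS and 4281 and 4296 in WT PBS, and the difference was no longer called, at -0.18 ± 0.10 (adjusted p = 0.254) in log2.

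In JNK3 KO PBS against WT PBS, 1 protein gene was called, where 0.407% of all genes were lower and 1.1% higher. It was *mt-Atp8*, at 5089 and 5424 against 8119.9 and 7794 FPKM (log2 fold change -0.60 ± 0.12, adjusted p = 0.0494). The call lay at the threshold and was lost without any one of 10 of the 12 libraries. The median log2 fold change of the 13 was -0.32, against 0 over all genes. With the copies added, 4 protein genes were lower and 0 higher, and the median was -0.20, against 0. Besides *mt-Atp8* they were *mt-Nd4l* at -0.73 ± 0.10 (adjusted p = 0.0126), *mt-Atp6* at -0.41 ± 0.07 (adjusted p = 0.033) and *mt-Co3* at -0.35 ± 0.07 (adjusted p = 0.0482). *mt-Nd1*, not called, was at 4076 and 4838 FPKM in JNK3 KO PBS and 5454 and 5585 in WT PBS, without overlap (log2 fold change -0.31 ± 0.07, adjusted p = 0.0605).

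Ratios within 1 transcript do not depend on how a library is scaled. *mt-Atp8* and *mt-Atp6* are translated from the same mRNA, so the ratio of *mt-Atp8* to *mt-Atp6* with its copy compares its first stretch with the next. It was 0.764 and 0.715 in WT PBS and 0.283 and 0.257 in WT NMDA. In sh*Pax6* it was 1.35 and 1.74 with PBS and 1.27 and 1.21 with NMDA. In JNK3 KO it went from 0.690 and 0.613 to 1.73 and 1.69. WT NMDA stood lowest, JNK3 KO NMDA overlapped with sh*Pax6* PBS at the top, and the ratio moved in opposite directions with NMDA in WT and JNK3 KO.

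*mt-Nd4l* and *mt-Nd4* also share an mRNA, and their ratio with copies set WT NMDA apart. It was 1.37 and 1.34 in WT PBS and 0.285 and 0.288 in WT NMDA. The 8 other libraries ranged from 0.957 to 1.38. For *mt-Co1*, the level of the last 483 bases (gene plus copy) over that of the gene was 1.35 and 1.38 in WT PBS and 5.23 and 5.61 in WT NMDA, and between 1.27 and 1.68 in the 8 libraries of sh*Pax6* and JNK3 KO. WT NMDA stood apart. The sum was 14316 and 15015 FPKM with PBS and 17258 and 17745 with NMDA, while *mt-Co1* alone was at 10592 and 10917 and 3302 and 3163. *mt-Rnr2* over *mt-Rnr1*, which leave 1 precursor, was 1.88 and 1.74 in WT PBS and 1.13 and 1.21 in WT NMDA, 1.51 and 1.62 and 0.971 and 0.950 in sh*Pax6*, and 1.46 and 1.66 and 1.79 and 1.54 in JNK3 KO. The ratios were not tested; with 2 libraries against 2, the smallest p that an exact permutation test could give is 0.333.

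**Figure D5:**
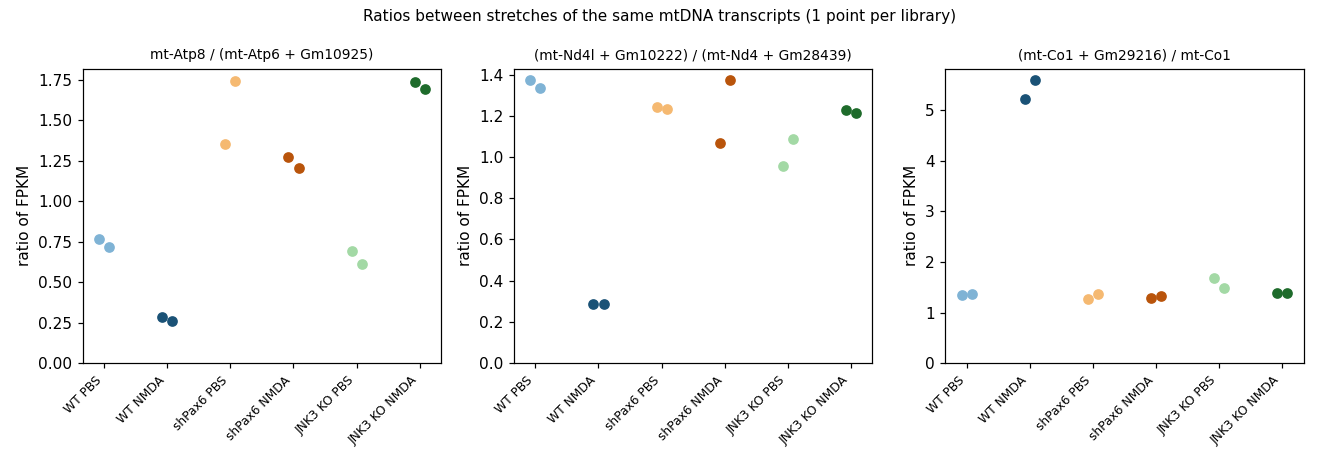
Ratio of FPKM (y axis) between stretches of 1 mtDNA transcript, 1 point per library, in the 6 groups (x axis): mt-Atp8 over mt-Atp6 with its copy, mt-Nd4l over mt-Nd4 with their copies, and mt-Co1 with its copy over mt-Co1. In WT NMDA the first 2 ratios were lowest and the third was highest, at 5.23 and 5.61.

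WT NMDA also differed from the other groups in values that are not mtDNA genes. By transcript length, genes other than mtDNA genes and their copies had a median log2 fold change in WT of 0 under 500 bases, 0.99 from 500 to 1000, 0.84 from 1000 to 2000, 0.23 from 2000 to 4000 and -0.61 above 4000. In sh*Pax6* these medians lay between 0 and 0.20, and in JNK3 KO between -0.18 and 0.05. The median under 500 bases was 0 in sh*Pax6* and JNK3 KO as well. A gene could pass the filter through a group other than those compared, and genes at 0 FPKM in both groups were not counted. The median of 0 therefore does not show whether short genes shifted in WT. When each library was corrected for its trend on length, 8 of the 13 genes fell in WT and none rose, where 25.5% of all genes fell and 26.3% rose. *mt-Atp8* spans 204 bases and *mt-Nd4l* 297, the shortest protein genes of mtDNA, and both kept their WT call under that correction. The correction moved *mt-Atp8* only from -2.02 to -2.14 and *mt-Nd4l* from -2.26 to -2.59 in log2. Their kept calls therefore do not show that a length effect was removed from them. Whether length shaped the values of these 2 genes was not tested.

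Cell markers also differed between the groups. Over all genes, 26% rose and 33.8% fell with NMDA in WT, 19.1% and 11% in sh*Pax6*, and 4.33% and 6.1% in JNK3 KO. The marker lists are short, and calls were frequent in WT in general. Of the 4 neutrophil markers, 4 rose with NMDA in WT, 3 rose in sh*Pax6* and 2 fell in JNK3 KO. They summed to 188 to 210.4 FPKM in WT PBS and 1923 to 1966 in WT NMDA, to 3.52 to 3.67 and 56.7 to 65.5 in sh*Pax6*, and to 129 to 143 and 10.8 to 12.2 in JNK3 KO. Of the 8 RGC markers, 7 fell in WT, 7 in sh*Pax6* and 5 in JNK3 KO. They summed to 536 to 555 and 297 to 318 FPKM in WT, 157 to 158 and 38.3 to 46.4 in sh*Pax6*, and 509.6 to 551 and 125 to 127 in JNK3 KO. Of the 8 rod markers, 4 rose and 2 fell in WT, 8 fell in sh*Pax6* and 6 fell in JNK3 KO. They summed to 26822 to 27023 and 26744 to 27027 FPKM in WT, 35477 to 38036 and 21788 to 22215 in sh*Pax6*, and 28025 to 28680 and 23197 to 23261 in JNK3 KO. All 4 erythrocyte markers rose in WT and in sh*Pax6*, and 1 fell in JNK3 KO. They summed to 97.0 to 107 and 611 to 649 FPKM in WT, 28.6 to 50.3 and 119.7 to 126 in sh*Pax6*, and 123 to 126 and 69.4 to 79.6 in JNK3 KO.

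Of the 6 amacrine markers, 6 fell in WT, 6 in sh*Pax6* and 1 in JNK3 KO, where 33.8%, 11% and 6.1% of all genes fell. The shares that rose over all genes were 26%, 19.1% and 4.33%. They summed to 500.2 to 515 FPKM with PBS and 220.2 to 224 with NMDA in WT, 329 to 338 and 91.4 to 95.2 in sh*Pax6*, and 492 to 495 and 237 to 239 in JNK3 KO, so the sum was lower in JNK3 KO too. Of the 5 cone markers, 2 fell and 1 rose in WT, and all 5 fell in sh*Pax6* and in JNK3 KO. The 5 bipolar markers gave 4 lower and 1 higher in WT, and 1 lower and 2 higher in both sh*Pax6* and JNK3 KO. The 3 RPE markers tested gave 2 lower and 1 higher in WT, 3 lower in sh*Pax6* and none called in JNK3 KO. Of 6 microglia and macrophage markers, 3 rose and 2 fell in WT, 3 rose in sh*Pax6* and 2 fell in JNK3 KO. The 5 Müller glia markers gave 2 higher and 3 lower in WT, and 2 higher and 1 lower in both sh*Pax6* and JNK3 KO. Of the 4 lens markers, 4 rose in WT, 2 rose and 1 fell in sh*Pax6*, and 3 rose in JNK3 KO. None of the marker sums was at 0. Their part in the mtDNA values was not tested, and in these bulk samples fewer cells of a type and less RNA per cell cannot be told apart.

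The nuclear genes that work with mtDNA were counted from lists. Of 78 nuclear subunits of complexes I to V tested, 76 rose and none fell with NMDA in WT, where 26% of all genes rose and 33.8% fell (median log2 fold change 1.51, against -0.09 over all genes). In sh*Pax6* 17 rose and none fell, where 19.1% of all genes rose and 11% fell, and the median was 0.10, against 0.10 over all genes. In JNK3 KO none rose and 22 fell, where 4.33% of all genes rose and 6.1% fell (median -0.25, against -0.01). Under equal FPKM sums the WT split was 69 higher and 3 lower, where 13.7% and 50.2% of all genes were, and under the length correction 72 and 2, where 26.3% and 25.5% were. *Atp5e*, the epsilon subunit of ATP synthase, went from 208 and 229.7 to 1115 and 1268 FPKM in WT (log2 fold change 2.44 ± 0.09, adjusted p = 8.93e-08), next to *Atp5j2* (log2 fold change 2.20 ± 0.10, adjusted p = 1.62e-07). In complex I, *Ndufa3* (log2 fold change 2.30 ± 0.10, adjusted p = 1.68e-07) and *Ndufa2* (log2 fold change 2.27 ± 0.08, adjusted p = 5.67e-08) had the largest changes. In complexes II, III and IV these were *Sdhb* at 1.296 ± 0.07 (adjusted p = 4.47e-07) and *Sdhc* at 0.54 ± 0.12 (adjusted p = 0.00299), *Uqcrq* at 2.25 ± 0.12 (adjusted p = 6.07e-07) and *Uqcr11* at 2.02 ± 0.08 (adjusted p = 1.38e-07), and *Cox5b* at 2.01 ± 0.10 (adjusted p = 4.66e-07) and *Cox7a1* at 1.92 ± 0.62 (adjusted p = 0.0241).

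The machinery that copies and transcribes mtDNA gave 8 genes higher and 2 lower of 19 in WT, 2 and 2 in sh*Pax6*, and 0 and 0 in JNK3 KO. The shares over all genes were 26% higher and 33.8% lower in WT, and 19.1% and 11% in sh*Pax6*. In JNK3 KO they were 4.33% and 6.1%, so calls were few there in general. *Polrmt*, the mitochondrial RNA polymerase, was at 11.8 and 11.7 FPKM in WT PBS and 63.6 and 48.5 in WT NMDA (log2 fold change 2.23 ± 0.20, adjusted p = 1.14e-05). *Tefm*, its elongation factor, rose in WT as well (log2 fold change 1.29 ± 0.26, adjusted p = 0.00193), while *Tfam*, the factor that packs mtDNA and starts transcription, was not called (log2 fold change 0.51 ± 0.23, adjusted p = 0.0853). Under equal FPKM sums the WT count was 4 higher and 4 lower, where 13.7% and 50.2% of all genes were. *Polrmt* had a log2 fold change of -0.36 ± 0.20 (adjusted p = 0.208) in sh*Pax6* and -0.47 ± 0.20 (adjusted p = 0.184) in JNK3 KO.

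Of 30 genes for processing and decay of mitochondrial RNA, 15 rose and 4 fell in WT, where 26% and 33.8% of all genes did. In sh*Pax6* 4 rose and 0 fell, where 19.1% of all genes rose and 11% fell. In JNK3 KO 0 were called, where 4.33% of all genes rose and 6.1% fell. *Lrpprc* and *Slirp* form the complex that protects mitochondrial mRNAs. *Slirp* rose in WT (log2 fold change 1.67 ± 0.14, adjusted p = 8.04e-06), and *Lrpprc* fell slightly (log2 fold change -0.28 ± 0.08, adjusted p = 0.0137). *Mrm3*, which methylates the large rRNA, had the largest change of the list (log2 fold change 1.79 ± 0.16, adjusted p = 9.66e-06). Under equal FPKM sums the WT split was 8 higher and 11 lower, where 13.7% and 50.2% of all genes were.

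Of 11 regulators of mitochondrial biogenesis, 7 fell and 2 rose in WT, where 33.8% of all genes fell and 26% rose, and their median log2 fold change was -0.75. Under equal FPKM sums 8 fell and none rose, where 50.2% of all genes fell and 13.7% rose, and under the length correction 5 fell and 4 rose, with a median of -0.19, where 25.5% fell and 26.3% rose. In sh*Pax6* 3 fell and 1 rose, where 11% of all genes fell and 19.1% rose, and in JNK3 KO 1 fell, where 6.1% did. *Esrrg*, an orphan receptor for oxidative metabolism, read 20.1 and 18.5 FPKM in WT PBS and 2.48 and 3.48 in WT NMDA (log2 fold change -2.67 ± 0.16, adjusted p = 9.42e-07). *Ppargc1a*, the coactivator PGC-1α, read 9.61 and 8.66 and 2.12 and 2.43 (log2 fold change -1.96 ± 0.19, adjusted p = 2.13e-05). In JNK3 KO *Ppargc1a* was at 7.41 and 7.45 and 9.01 and 8.59 FPKM and was not called (adjusted p = 0.511).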

How the data were processed

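Gene and transcript FPKM of 12 retina libraries were used as deposited by the authors, who aligned paired reads of poly(A) RNA (oligo-dT primed, TruSeq mRNA kit) with STAR 2.7.1a to GRCm38.p6 and estimated levels with RSEM 1.3.3; their own comparisons used edgeR 3.36.0 in R 4.1.0. FPKM is relative to transcript length and to the fragments of a library, and depth was not given in the sources used here, so no interval or floor from counts is given. Groups were taken from the labels.

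The transform log2(FPKM + 0.1) was fitted with limma 3.58.1 in R 4.3.3 over the 16471 genes that exceeded a mean of 1 FPKM in some group. The fit had 1 coefficient per group over all 12 libraries (6 residual df) and an intensity trend, and p-values were adjusted by Benjamini-Hochberg over all genes tested. The fit was tested on simulated data. Sequences were read from the GENCODE M21 transcripts (GRCm38), and the chromosome 1 copies were matched by alignment of transcripts (at least 90% identity over at least 100 bases).

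The members and lists were chosen with earlier results of these data known. All detected mtDNA genes and the chromosome 1 copies were named, and from each nuclear list the 2 genes with the largest change in WT among those called, plus Polrmt, Tfam, Lrpprc, Slirp and Ppargc1a. Of 79 listed nuclear subunits 78 were found in the table. Alternatives were another pseudocount, other filters, 4 scalings, a length correction, other spread estimates, a replicate block, the transcript table and each library left out. Adding the copies was chosen after seeing the data; no crossed pairing was run, since no correlation was below -0.1.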

Additional observations from a re-analysis of the deposited data

Results flagged for a closer look

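These genes had an NMDA response that differed between genotypes in a test of the difference itself, an interaction in the limma fit over all genes. Between WT and sh*Pax6*, the log2 response to NMDA differed (WT minus sh*Pax6*) by -0.60 for *mt-Nd1*, -0.70 for *mt-Nd2*, -1.40 for *mt-Co1*, -1.38 for *mt-Atp8*, 0.67 for *mt-Atp6*, -2.27 for *mt-Nd4l*, -0.41 for *mt-Nd4*, -0.65 for *mt-Nd5*, 1.26 for *mt-Nd6* and -0.20 for *mt-Cytb*. The adjusted p of these ran from 1.99e-06 to 0.0244, and the SE of the differences from 0.06 to 0.29. Between WT and JNK3 KO it differed (WT minus JNK3 KO) by -1.31 for *mt-Nd1*, -1.55 for *mt-Nd2*, -1.76 for *mt-Co1*, 1.38 for *mt-Co2*, -3.84 for *mt-Atp8*, -2.16 for *mt-Nd4l*, -0.97 for *mt-Nd4*, -1.51 for *mt-Nd5*, -0.38 for *mt-Cytb* and -0.48 for *mt-Rnr2*. The adjusted p of these ran from 4.12e-07 to 0.0397, and the SE of the differences from 0.06 to 0.46. Between sh*Pax6* and JNK3 KO it differed (sh*Pax6* minus JNK3 KO) by -0.72 for *mt-Nd1*, -0.86 for *mt-Nd2*, -0.36 for *mt-Co1*, -2.45 for *mt-Atp8*, -0.56 for *mt-Nd4*, -0.87 for *mt-Nd5* and -1.45 for *mt-Nd6*. The adjusted p of these ran from 3.31e-05 to 0.00961, and the SE of the differences from 0.07 to 0.29. The signs of *mt-Co1*, *mt-Co2* and *mt-Atp6* in these differences depended on the chromosome 1 copies or the scaling, and their values under each are given below. No group held 4 libraries, so no outlying library could be tested for.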

How the results depend on the processing

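The counts of called protein genes in the text were 11 in WT, 7 in sh*Pax6*, 6 in JNK3 KO, 6 in sh*Pax6* PBS against WT PBS, 1 in JNK3 KO PBS against WT PBS, 10 in WT minus sh*Pax6*, 9 in WT minus JNK3 KO and 7 in sh*Pax6* minus JNK3 KO, with 4 rRNA calls over all 8 comparisons. Not every count is listed for each setting below, so a count not named may have changed as well. The share of all genes called also changed with the setting. In WT 53.8% of all genes were lower with copies added and equal sums over other genes, against 33.8% without that setting. Counts below that lack such a share cannot be read as results about the mtDNA genes alone. With quantile normalization, the count was 1 in sh*Pax6*, 0 in JNK3 KO PBS against WT PBS and 9 for the rRNA calls. With the spread taken from the compared groups only, the count was 0 in sh*Pax6*, 3 in JNK3 KO, 0 in sh*Pax6* PBS against WT PBS and 0 in JNK3 KO PBS against WT PBS. With the copies added (chosen after seeing the data), the count was 12 in sh*Pax6* and 4 in JNK3 KO PBS against WT PBS. In WT, 9 were then lower and 4 higher, and in JNK3 KO 9 were higher. In sh*Pax6* PBS against WT PBS, 5 were lower and 3 higher. Of the differences, WT minus sh*Pax6* gave 7 lower and 4 higher, and WT minus JNK3 KO 10 and 2. The difference sh*Pax6* minus JNK3 KO gave 10 lower and 0 higher. With copies added and the same sum over other genes (chosen after seeing the data), the count was 12 in sh*Pax6*, 6 in JNK3 KO PBS against WT PBS, 13 in sh*Pax6* minus JNK3 KO and 9 for the rRNA calls. Under that setting it was 12 in WT and 13 in WT minus JNK3 KO, all lower. Without a filter, the count was 3 in JNK3 KO, 0 in JNK3 KO PBS against WT PBS and 2 for the rRNA calls. Without an intensity trend, the count was 3 in JNK3 KO, 3 in sh*Pax6* PBS against WT PBS, 0 in JNK3 KO PBS against WT PBS and 2 for the rRNA calls. With the transcript table, the count was 2 in JNK3 KO, 0 in JNK3 KO PBS against WT PBS and 2 for the rRNA calls. The mtDNA values themselves were the same there as in the gene table. With a pseudocount of 1, the count was 2 in JNK3 KO PBS against WT PBS. With the filter on the mean of all 12 libraries, the count was 3 in JNK3 KO PBS against WT PBS. With each library rescaled to the same FPKM sum, the count was 8 in WT, all lower, and 3 in JNK3 KO PBS against WT PBS. With the same sum over genes other than mtDNA genes and copies, the count was 4 in JNK3 KO PBS against WT PBS and 9 for the rRNA calls. With 75th percentile scaling, the count was 3 in JNK3 KO PBS against WT PBS. With the replicate block, the count was 0 in JNK3 KO PBS against WT PBS. With the length correction, the count was 8 in WT, all lower, and 8 for the rRNA calls. When libraries were left out one at a time, the count ranged from 10 to 11 in WT, from 6 to 9 in sh*Pax6*, from 2 to 7 in JNK3 KO, from 3 to 6 in sh*Pax6* PBS against WT PBS, from 0 to 2 in JNK3 KO PBS against WT PBS, from 8 to 10 in WT minus sh*Pax6*, from 8 to 9 in WT minus JNK3 KO, from 6 to 9 in sh*Pax6* minus JNK3 KO and from 2 to 8 for the rRNA calls. The cause was not tested.

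The log2 difference of single genes turned direction as follows. With quantile normalization, it was -0.34 for *mt-Co2*, -0.60 for *mt-Atp6*, -0.54 for *mt-Rnr1* and -1.26 for *mt-Rnr2* in WT, 0.065 for *mt-Nd1* and 0.083 for *mt-Cytb* in sh*Pax6*, -0.35 for *mt-Co1* and -0.030 for *mt-Nd4* in JNK3 KO, -0.26 for *mt-Atp6* in WT minus sh*Pax6*, -0.14 for *mt-Co2*, -1.06 for *mt-Atp6* and -1.08 for *mt-Rnr1* in WT minus JNK3 KO and 0.24 for *mt-Co1* in sh*Pax6* minus JNK3 KO. With the copies added, it was 0.26 for *mt-Co1* and -0.57 for *mt-Atp6* in WT, -0.32 for *mt-Nd4l* in sh*Pax6*, 0.53 for *mt-Nd4l* in JNK3 KO, -0.25 for *mt-Co3* in sh*Pax6* PBS against WT PBS, 0.61 for *mt-Co1* and -0.24 for *mt-Atp6* in WT minus sh*Pax6*, 0.42 for *mt-Co1* and -0.98 for *mt-Atp6* in WT minus JNK3 KO and -0.85 for *mt-Nd4l* in sh*Pax6* minus JNK3 KO. With copies added and the same sum over other genes, it was -0.37 for *mt-Co2*, -1.26 for *mt-Atp6*, -0.47 for *mt-Nd3*, -0.022 for *mt-Rnr1* and -0.65 for *mt-Rnr2* in WT, -0.43 for *mt-Nd4l* in sh*Pax6*, 0.62 for *mt-Nd4l* in JNK3 KO, -0.29 for *mt-Co3* in sh*Pax6* PBS against WT PBS, 0.031 for *mt-Co1*, -0.82 for *mt-Atp6* and -0.73 for *mt-Co3* in WT minus sh*Pax6*, -0.40 for *mt-Co2*, -1.76 for *mt-Atp6* and -0.54 for *mt-Rnr1* in WT minus JNK3 KO and -0.39 for *mt-Co2* and -1.05 for *mt-Nd4l* in sh*Pax6* minus JNK3 KO. With each library rescaled to the same FPKM sum, it was -0.53 for *mt-Rnr2* in WT. With the same sum over genes other than mtDNA genes and copies, it was -0.030 for *mt-Atp6*, -0.022 for *mt-Rnr1* and -0.65 for *mt-Rnr2* in WT and -0.54 for *mt-Rnr1* in WT minus JNK3 KO. With the length correction, it was -0.12 for *mt-Atp6*, -0.25 for *mt-Rnr1* and -0.73 for *mt-Rnr2* in WT and -0.83 for *mt-Rnr1* in WT minus JNK3 KO. Without sh*Pax6* NMDA replicate 2, it was 0.60 for *mt-Co2* in sh*Pax6*, against -0.70 without replicate 1. The cause was not tested.

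The libraries shared replicate numbers. Deviations of same-numbered libraries from their group means correlated between -0.10 and 0.09 over the 15 pairs of groups, so no pairing was taken from them, and the labels name none. With the replicate block, the count was 11 in WT, 7 in sh*Pax6*, 5 in JNK3 KO, 6 in sh*Pax6* PBS against WT PBS, 0 in JNK3 KO PBS against WT PBS, 10 in WT minus sh*Pax6*, 9 in WT minus JNK3 KO, 7 in sh*Pax6* minus JNK3 KO and 3 for the rRNA calls. Single genes that lost their call under the block were *mt-Nd4* in JNK3 KO (adjusted p = 0.0517), *mt-Atp8* in JNK3 KO PBS against WT PBS (adjusted p = 0.0768) and *mt-Rnr2* in WT minus JNK3 KO (adjusted p = 0.0525). Depth is unknown, so no value could be weighed by its reads. With 2 libraries per group, each left-out library leaves 1, which was assumed to vary like the others. The gene-against-copy split limits 7 genes, and the FPKM sum of WT NMDA limits the direction of small rises there. Poly(A) selection limits the rRNA values and may limit those of *mt-Nd6*.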
